A study of Homo sapiens with 9 samples.

Results

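The ZNF genes of human chromosome 19 are a family of genes for zinc finger proteins that lie in clusters along that chromosome. Members were the features of the deposited expression table whose symbol is ZNF, a number and at most 1 trailing capital letter, and whose hg38 coordinates lie on chromosome 19. ZNF137P, a pseudogene, is such a symbol. This rule took 246 of the 46846 features of the table and used no measured value. Features whose symbol joins a pair of genes were not members. RNA with a poly(A) tail had been sequenced from MDA-MB-231, an established human breast cancer cell line without hormone receptor expression, in 3 groups of 3 libraries. The controls received DMSO and are labelled 12 h, the indisulam cells received 3.3 µM for 12 h, and the pladienolide B cells received 10 nM for 6 h. Drug and time therefore differ together between the pladienolide B group and both others, and their parts cannot be told apart. No group carries a genetic change by the labels, and all libraries come from the 1 cell line.

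Most chromosome 19 ZNF proteins are transcription factors with an array of C2H2 fingers, each of which contacts a few DNA bases. In many of them a KRAB domain precedes the fingers and binds TRIM28 (KAP1), which brings SETDB1 and heterochromatin proteins to the bound site, and a large share of the known targets are transposable elements. The genes arose by tandem duplication, so neighbours are often close copies of each other. Indisulam glues RBM39, a splicing factor, to the ubiquitin ligase substrate receptor DCAF15, which leads to loss of RBM39, and pladienolide B binds the SF3b complex, which recognises the branch site of introns. The sources used here do not say how reads common to near-identical ZNF copies were counted, so the split of reads between such copies is uncertain for every member.

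The libraries held between 59312100 and 83910831 reads, of which the members took 0.30 to 0.32% in DMSO, 0.337 to 0.361% after indisulam and 0.271 to 0.332% after pladienolide B. In the deposited scaling the members summed to 185000 to 193000 in DMSO, 214000 to 228000 after indisulam and 237000 to 273000 after pladienolide B. The totals of all features in that scaling were 60435009 to 61583500, 62895851 to 63690595 and 82366487 to 87510746 in the same order. Marker genes of the line were checked. ESR1 reached at most 2.04 and PGR at most 1.68, both below the value of 3 reads (2.48 to 3.87 in these libraries), and VIM lay between 113029 and 194494. SPARC, listed as a marker expected to be high, lay only between 28.4 and 65.9. Of the other 5 receptor and luminal markers, listed as low, FOXA1 reached at most 7.33 and CDH1 lay between 54.7 and 117. GATA3 (381 to 1599), EPCAM (961 to 1895) and ERBB2 (5102 to 5977) were not near 0. GATA3 (1.96 ± 0.09), EPCAM (0.78 ± 0.09) and CDH1 (0.57 ± 0.24) rose with pladienolide B on the log2 scale, and their part in the members' results was not tested. One pattern concerns the libraries and not the drugs. In each group the replicate numbered 2 held the lowest value of its group for more members than either other replicate: 49.8% in DMSO, 54.8% after indisulam and 58.0% after pladienolide B. Over all features tested the same replicates held the lowest value for 28.7%, 30.0% and 31.5%. Among ZNF genes on other chromosomes the shares were 33.8%, 44.0% and 46.2%. The part of this pattern in the results below was not tested beyond leaving those libraries out.

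**Figure D1:**
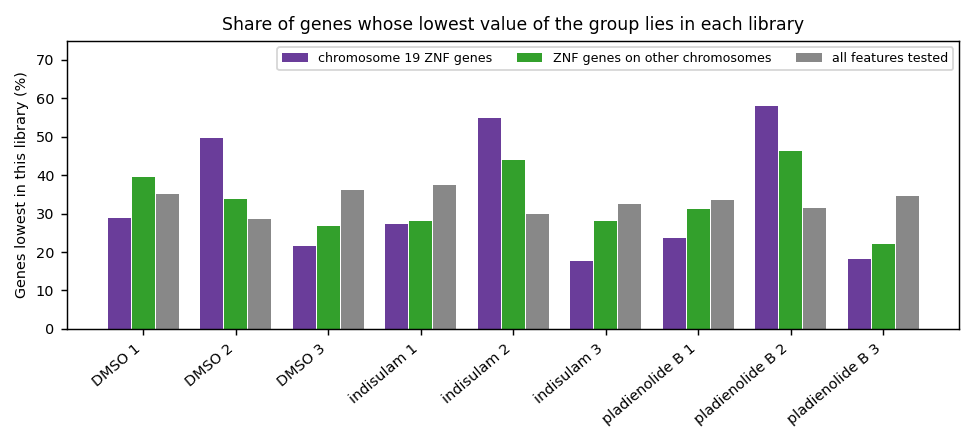
Share of genes (percent, vertical axis) whose lowest value within a group lies in each of the 9 libraries, for the chromosome 19 ZNF genes, ZNF genes on other chromosomes and all features tested. The purple bars of the replicates numbered 2 stand at 49.8%, 54.8% and 58.0%, against 28.7%, 30.0% and 31.5% for all features.

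Of the 246 members, 219 had a mean normalised read count of at least 10 over the 9 libraries and were tested. Of the other 27, 10 had no read in any library and 17 had some, with a highest group mean of 15.0. Among the tested members the median of the mean was 710, from 10.7 to 13049, and 79 members reached 1000. By the GENCODE 29 annotation 213 of the tested members are protein coding and 6 are pseudogenes, with 118 genes on the plus strand and 101 on the minus strand. Their median exon number was 4, and a median of 86.8% of the coding sequence lay in the last exon, where it was 78.5% for ZNF genes on other chromosomes and 13.3% for the other chromosome 19 genes. That exon usually carries the finger array in this family. Some members had little of their coding sequence there, such as ZNF653 (9.49%) and ZNF507 (12.7%).

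Promoter features were counted, which the rule did not use. RefSeq promoter windows (GRCh38.p14, 250 bases before to 50 after the start) were at hand for 189 of the tested members, and 168 of these windows begin their gene within 300 bases of the deposited start. The letters CCGGAAGT, a strong binding site of ETS factors, were found on either strand in 39 of 189 windows (20.6%). Over all 27305 RefSeq windows at hand, which were not limited to tested genes, the share was 4.44%. Windows of ZNF genes on other chromosomes, tested or not, held these letters in 29 of 201 cases (14.4%). CCAAT was found in 54.0% of member windows, 43.3% of other ZNF windows and 35.7% of all. The GC box GGGCGG was found in 67.7%, 60.2% and 44.6%, and TATAAA in 2.12%, 3.98% and 12.0%, in the same order. These differences between sets were not tested. Member windows also held more CG dinucleotides, with a median of 20 against 14 over all windows. The part of CG content and of the limit to tested genes in these shares was not tested. None of these motifs contains another, and a match is a description of letters, not of a bound site. The windows of 3 members with large differences after pladienolide B are shown because the same letters occur in genes that rose (ZNF132, ZNF776) and in one that fell (ZNF653). They were chosen after the values were seen. Capitals mark the ETS letters, which lie here on the strand opposite to the printed one. In order, the windows span chr19:58440104-58440403 on the minus strand, chr19:57746565-57746864 on the plus strand and chr19:11505790-11506089 on the minus strand.
ZNF132: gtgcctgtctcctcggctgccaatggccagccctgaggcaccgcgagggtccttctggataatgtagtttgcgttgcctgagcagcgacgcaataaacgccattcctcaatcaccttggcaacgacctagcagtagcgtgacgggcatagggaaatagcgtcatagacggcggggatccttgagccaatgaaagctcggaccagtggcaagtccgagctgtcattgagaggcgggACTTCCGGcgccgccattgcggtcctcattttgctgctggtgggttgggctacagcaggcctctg
ZNF776: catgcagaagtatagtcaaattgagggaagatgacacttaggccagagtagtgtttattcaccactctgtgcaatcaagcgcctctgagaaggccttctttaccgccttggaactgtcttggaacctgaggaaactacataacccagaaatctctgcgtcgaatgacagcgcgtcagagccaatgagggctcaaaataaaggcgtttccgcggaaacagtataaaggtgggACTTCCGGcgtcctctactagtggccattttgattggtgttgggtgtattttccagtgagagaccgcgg
ZNF653: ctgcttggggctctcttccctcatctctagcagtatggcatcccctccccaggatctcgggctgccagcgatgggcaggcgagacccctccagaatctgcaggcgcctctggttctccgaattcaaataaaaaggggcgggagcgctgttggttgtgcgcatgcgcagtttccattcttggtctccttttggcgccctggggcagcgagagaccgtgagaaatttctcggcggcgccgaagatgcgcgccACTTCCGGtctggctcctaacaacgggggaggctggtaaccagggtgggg

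The ETS letters stood in 23.2% of the windows of members that rose with pladienolide B and in 23.6% of those that fell, against 8.57% of the 35 that were not called, where 3 windows held them. For indisulam the shares were 22.6% of members that rose and 19.7% of the others.

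After 12 h of indisulam the chromosome 19 ZNF genes lay mostly above DMSO. Of 219 tested members 68 rose (31.1%), and among all 16846 features tested 14.5% rose. A further 8 members fell (3.65%), against 12.4% of all features, and 143 were not called. The median log2 difference of the members was 0.24, with quartiles of 0.05 and 0.43, while the median of all features was 0.05. Differences above 0 were seen for 171 members (78.1%). The differences were small: called members that rose at least 2-fold numbered 2 (0.913%; 2.17% of all features), and none fell that far (1.47% of all features). Indisulam and DMSO libraries did not overlap and were higher with indisulam for 119 members (54.3%; 27.4% of all features), and lower for 22 (10.0%; 21.0% of all features). Tests were made with limma over all features, at a Benjamini-Hochberg adjusted p of 0.05. The counts depended on the libraries: leaving out 1 library gave 43 to 61 rises and 3 to 5 falls. The lowest number of rises, 43, came without indisulam replicate 1, and 44 were counted without DMSO replicate 2. Each of the 6 omissions moved the number of falls by more than 1.5 times. With only the libraries of the 2 groups in the fit, 103 members rose and 14 fell, and over all 16846 features 3497 rose and 2747 fell. Over all features the omission of 1 library gave 1565 to 1752 rises and 1489 to 1721 falls.

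The same counts were made in the gene sets around the members. Of 225 tested ZNF genes on other chromosomes 47 rose and 15 fell, with a median of 0.13. Of 785 other chromosome 19 features with a symbol 57 rose and 119 fell, with a median of −0.02. Of 10 tested antisense or divergent transcripts named after chromosome 19 ZNF genes none rose and 3 fell at an adjusted p of 0.05 by limma, with a median of −0.45. The sets were not tested against each other.

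**Figure D2:**
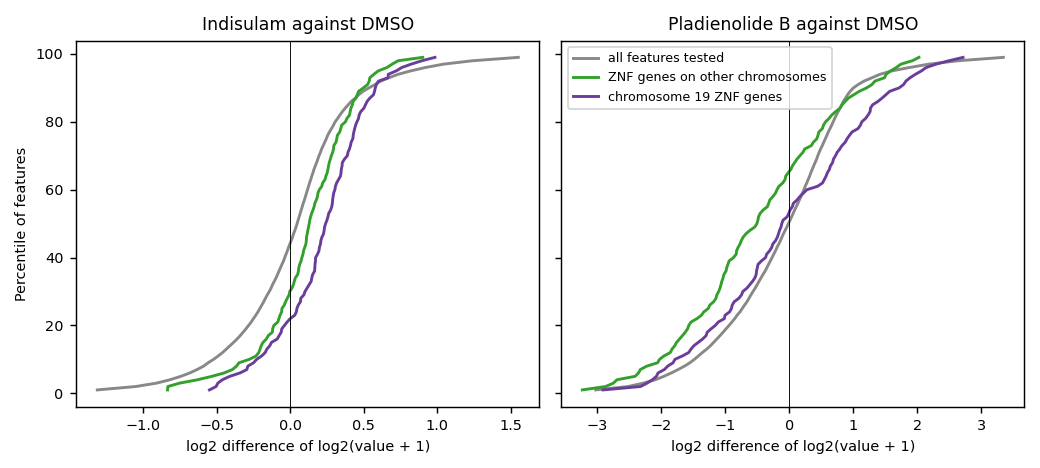
Percentile of genes (vertical axis) against the log2 difference from DMSO of log2(value + 1) for indisulam (left) and pladienolide B (right). The curve of the chromosome 19 ZNF genes is shifted to the right of all features with indisulam (medians 0.24 and 0.05), and is wider than it with pladienolide B (quartiles −0.90 and 0.90).

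The largest rises and falls named for each drug were chosen among called members whose values did not overlap DMSO. Their separation from DMSO was thus a condition of the choice. ZNF132 stood first among the rises with a mean of at least 100. Its values were 72.0, 56.1 and 85.6 in DMSO, 152, 103 and 176 with indisulam, and 750, 791 and 726 with pladienolide B. The 3 groups did not overlap, with pladienolide B above indisulam and indisulam above DMSO. The log2 difference from DMSO was 0.99 ± 0.20 (SE, n = 3 per group) with indisulam, at an adjusted p of 0.00293 by limma. ZNF132 lies on the minus strand at 58432814 to 58440222.

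ZNF83, the most abundant of the 8 named rises in DMSO, had values of 1975, 1899 and 1838 in DMSO and 4007, 3611 and 3597 with indisulam. All indisulam libraries lay above all DMSO libraries, and the log2 difference was 0.97 ± 0.12 with an adjusted p of 7.94e-05 by limma. In pladienolide B libraries ZNF83 was at 2492, 1651 and 2297, a range that includes the DMSO values, and it was not called there (0.15 ± 0.12). It was called higher with pladienolide B without replicate 2 of that drug (0.33) and with quantile normalisation (0.30), and lower with same-total scaling (−0.32). ZNF83 is overlapped by an unnamed feature with a mean of 1340, so part of its reads may be shared with that feature. ZNF557 (7069444 to 7087968, plus strand) rose from 162, 166 and 177 in DMSO to 326, 328 and 301 with indisulam. Its spread was small in both groups, and the log2 difference was 0.92 ± 0.13. With pladienolide B it lay at 147, 153 and 161, below each DMSO library, without passing the test (−0.13 ± 0.13). With same-total scaling ZNF557 was called lower with pladienolide B (−0.60).

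ZNF841 lay at 1487, 1411 and 1513 in DMSO, 2623, 2307 and 2582 after indisulam and 1577, 1414 and 1764 after pladienolide B. It was higher in the indisulam libraries than in all others, with a log2 difference from DMSO of 0.77 ± 0.09 and an adjusted p of 4.72e-05 by limma. ZNF816 rose with both drugs, from 442, 399 and 386 in DMSO to 838, 700 and 698 with indisulam (0.86 ± 0.14) and to 1495, 1052 and 1521 with pladienolide B (1.71 ± 0.14). ZNF699 followed the same order, from a mean of 1197 ± 85.6 (SD, n = 3) in DMSO to 1982 ± 284 after indisulam and 5288 ± 650 after pladienolide B. ZNF223 (0.81 ± 0.15) and ZNF525 (0.76 ± 0.18) completed the 8 largest rises with indisulam among members with a mean of at least 100. The 2 members past 2-fold, both with a lower mean, were ZNF582 (1.04 ± 0.26) and ZNF177 (1.09 ± 0.34, adjusted p 0.0285 by limma). ZNF177 was singled out after its values were seen. ZNF582 rose from 41.1, 47.9 and 48.9 in DMSO to 104, 63.9 and 131, so that the replicate numbered 2 stood lowest with indisulam, and ZNF177 from 68.7, 60.2 and 42.8 to 138, 109 and 117. The call of ZNF582 was lost without indisulam replicate 3 (0.82, adjusted p 0.059 by limma). That of ZNF177 was lost without DMSO replicates 2 or 3 or without any 1 indisulam library (0.90 to 1.17, adjusted p 0.0559 to 0.11 by limma).

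**Figure D3:**
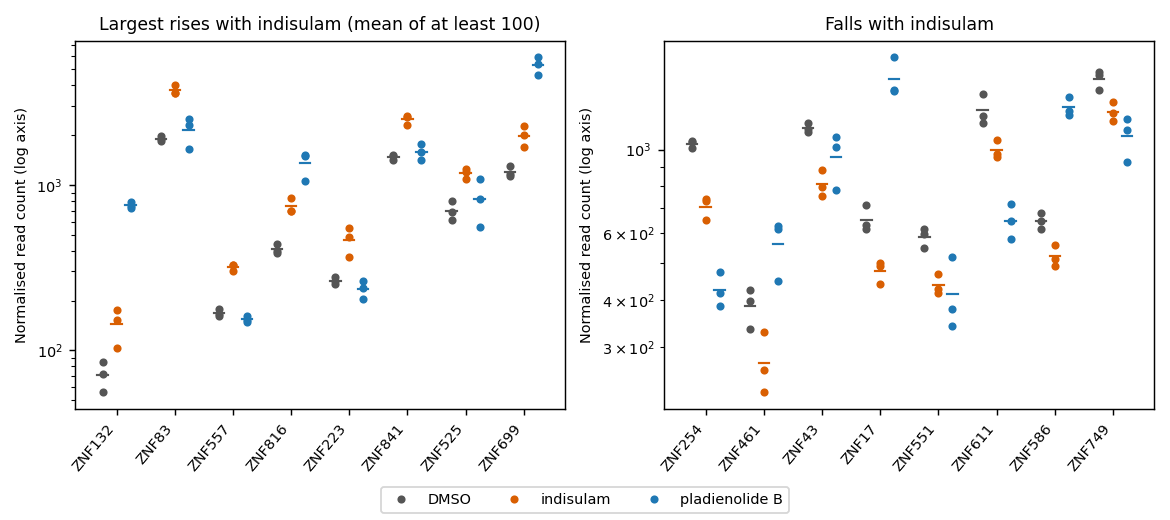
Normalised read counts (log axis) of the 8 largest rises with a mean of at least 100 and of the 8 falls with indisulam. Points are libraries and bars are group means (n = 3 per group). In the deposited scaling ZNF83, ZNF557 and ZNF841 are highest in the indisulam libraries, whereas ZNF132, ZNF816 and ZNF699 are highest with pladienolide B.

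The 8 members that fell with indisulam fell by less than 2-fold. ZNF254 was at 1012, 1046 and 1051 in DMSO and at 738, 729 and 651 with indisulam. The groups were clearly apart, with a log2 difference of −0.56 ± 0.10 and an adjusted p of 0.00125 by limma. With pladienolide B it was lower again, at 416, 384 and 473 (−1.29 ± 0.10). ZNF43 was at 1115, 1174 and 1136 in DMSO and 880, 796 and 755 with indisulam (−0.50 ± 0.11). Both lie in the cluster between 19.7 and 24.1 Mb. ZNF17 was at 631, 711 and 614 in DMSO and 500, 440 and 491 with indisulam, below each DMSO library (−0.45 ± 0.11). Its pladienolide B values, 1442, 1428 and 1753, stood above all others (1.24 ± 0.11). ZNF17 lost its call without the 3 libraries numbered 2 (−0.33, adjusted p 0.108 by limma). The other falls were ZNF461 (−0.51 ± 0.17), ZNF551 (−0.42 ± 0.14), ZNF611 (−0.34 ± 0.10), ZNF586 (−0.31 ± 0.09) and ZNF749 (−0.29 ± 0.10), with adjusted p values between 0.022 and 0.0484 by limma. Each of these 5 lost its call in 5 to 8 of 18 other settings. ZNF551 and ZNF749 lost it without any 1 of the 6 DMSO and indisulam libraries. ZNF461 lost it without DMSO replicates 2 or 3 or indisulam replicates 1 or 2, and ZNF586 without replicates 1 or 2 of either group. ZNF611 lost it without DMSO replicates 1 or 3 or indisulam replicates 2 or 3. Over these omissions the log2 differences of the 5 genes ran from −0.49 to −0.25.

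With 6 h of pladienolide B about equal numbers of members rose and fell in the deposited scaling, as did features over the whole table. Of the 219 tested members 88 rose (40.2%; 34.3% of all features) and 89 fell (40.6%; 35.5% of all features), with 42 not called. Both drugs are compared with the same DMSO libraries. The median log2 difference was −0.11 (all features −0.01), from −3.82 to 5.71. The quartiles of the members were −0.90 and 0.90, a width of 1.81 that compares with 1.30 for all features and 1.32 for the other chromosome 19 features. For ZNF genes on other chromosomes the width was 1.69, so a wide spread was not particular to the members. Rises of at least 2-fold numbered 49 (22.4%; 9.62% of all features) and falls of that size 51 (23.3%; 17.9% of all features). Among ZNF genes on other chromosomes these shares were 12.4% and 35.6%. Groups that did not overlap numbered 86 with pladienolide B higher (39.3%; 35.5% of all features) and 89 with it lower (40.6%; 36.3% of all features).

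The balance of rises and falls depended on the scaling of the libraries. With every library scaled to the same total, 63 members rose and 126 fell, the member median was −0.59 and the median of all features −0.48. Of all 16846 features 2733 then rose and 9086 fell. With quantile normalisation 101 members rose and 71 fell, with a member median of 0.13, and over all features 6045 rose and 5429 fell. TMM scaling gave 86 and 94 for the members, and 5258 and 6428 over all features. The same-total scaling shifted the median of all features by −0.47, and a direction near 0 is therefore relative to the scaling chosen. Of 225 tested ZNF genes on other chromosomes 64 rose and 126 fell in the deposited scaling, with a median of −0.50. The difference between both ZNF sets was not tested.

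The largest rise among all members was that of ZNF233, which was singled out after its values were seen because its mean was under 100. It had 8, 2 and 4 reads in DMSO, 6, 4 and 9 after indisulam and 308, 178 and 162 after pladienolide B. DMSO and indisulam libraries were at or close to the level of a few reads, and the log2 difference of 5.71 ± 0.46 depends on the pseudocount of 1. ZNF233 passed the filter on low values only through the pladienolide B libraries, and it overlaps ZNF235, a feature with a mean of 95.2.

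Among members with a mean of at least 100, ZNF132 rose most (3.41 ± 0.20, adjusted p 5.06e-09 by limma, 10.6-fold). ZNF432 rose from 83.8, 99.9 and 88.6 in DMSO to 749, 490 and 624 with pladienolide B, with all 3 above every other library (2.74 ± 0.20). ZNF614, its neighbour at 52012772 to 52028411, rose from 592, 574 and 629 to 3753, 3062 and 4134, again without overlap (2.60 ± 0.11). Both genes lie on the minus strand in the cluster from 51.6 to 53.6 Mb. With indisulam ZNF614 stood at 834, 681 and 707 and did not pass the test (0.30 ± 0.11). It passed with DESeq2 (adjusted p 0.0341) and with only the libraries of both groups in the limma fit (adjusted p 0.0253).

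ZNF792 was at 725, 621 and 650 in DMSO and 552, 604 and 612 with indisulam. With pladienolide B it reached 3961, 3820 and 3809, a narrow group far above the rest, with a log2 difference of 2.54 ± 0.08 and an adjusted p of 3.72e-11 by limma. Its cluster between 34.5 and 35.0 Mb has 5 tested members. ZNF792 was the only one of them that rose with pladienolide B, and the other 4 fell (34.3% and 35.5% of all features). ZNF850 rose from 1764, 1577 and 1759 to 9566, 7634 and 10256 (2.42 ± 0.10) and was also higher with indisulam, at 2616, 2202 and 2644 (0.55 ± 0.10). ZNF543 rose to 2053, 2005 and 1844 from 331, 384 and 418 (2.38 ± 0.11). ZNF776 rose to 4462, 4630 and 4745 from 929, 1065 and 978 (2.22 ± 0.07), and ZNF14 to 2262, 1723 and 2098 from 477, 459 and 429 (2.15 ± 0.12). In each of these 3 genes the lowest pladienolide B library was above the highest DMSO library, as the choice of named genes required.

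ZNF653 fell most. It was at 717, 730 and 663 in DMSO, 634, 616 and 635 after indisulam and 52.2, 52.9 and 41.9 after pladienolide B. The pladienolide B group lay far below both others, with a log2 difference from DMSO of −3.82 ± 0.13, 14.4-fold lower, at an adjusted p of 4.09e-11 by limma. ZNF653 has 9 exons, above the family median, and lies at 11483429 to 11505923 on the minus strand. ZNF253 fell from 294, 242 and 271 to 23.1, 10.3 and 26.6 (−3.78 ± 0.30). ZNF681 fell from 473, 459 and 526 to 55.2, 55.5 and 74.8 (−2.97 ± 0.14). Neither group overlapped DMSO, which the choice of these genes required. Both belong to the cluster from 19.7 to 24.1 Mb, where 6 of 27 tested members rose and 14 fell (34.3% and 35.5% of all features).

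ZNF137P, the pseudogene, fell from 163, 147 and 159 to 17.1, 34.8 and 24.1 (−2.63 ± 0.24). ZNF552 fell from 462, 400 and 406 to 86.3, 74.8 and 85.0 (−2.35 ± 0.15), and ZNF302 from 314, 305 and 352 to 76.3, 50.3 and 76.1 (−2.27 ± 0.18). ZNF563 was at 151, 133 and 177 in DMSO and at 36.1, 24.5 and 38.1 with pladienolide B (−2.20 ± 0.21). All 4 were apart from DMSO in every library, by the rule of choice, and none was called with indisulam in the fit of all libraries. ZNF563 was close to the threshold there (0.59 ± 0.21, adjusted p 0.0519 by limma) and was called higher with indisulam in 7 of 18 other settings, among them DESeq2 (0.59, adjusted p 0.0114). ZNF28 fell from 1708, 1659 and 1822 to 462, 286 and 424 (−2.17 ± 0.15), with the replicate numbered 2 lowest.

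**Figure D4:**
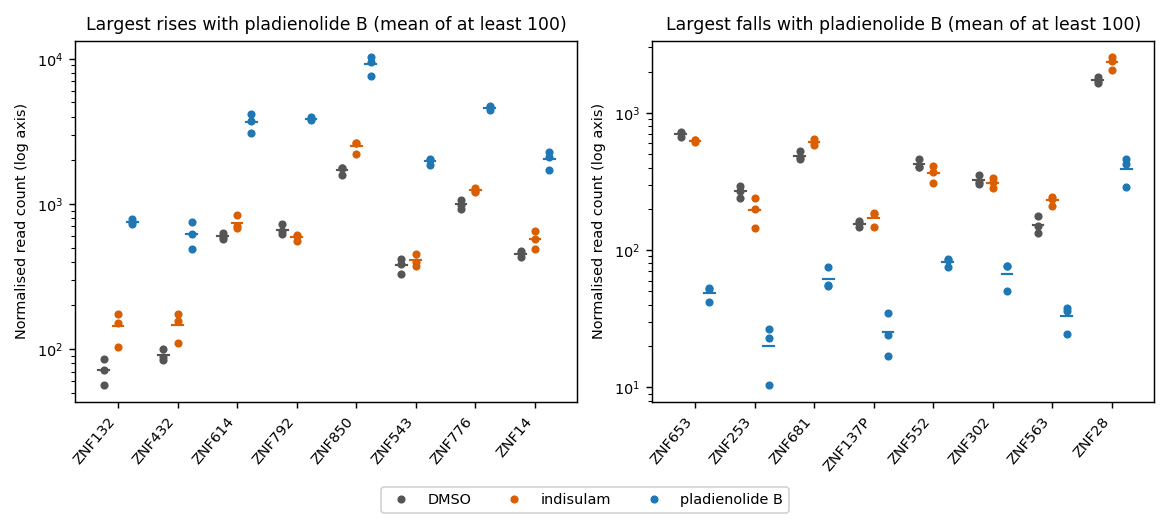
Normalised read counts (log axis) of the 8 largest rises and the 8 largest falls with pladienolide B among members with a mean of at least 100. Points are libraries and bars are group means (n = 3 per group). In each of these genes the pladienolide B points stand apart from the DMSO points, as the choice of genes required. For ZNF653 they span 41.9 to 52.9 against 663 to 730.

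The most abundant members took different courses. ZNF146, which encodes a protein made almost wholly of fingers and has no KRAB domain, had the highest mean. It was at 10904, 10077 and 11652 in DMSO, 12500, 11764 and 13270 after indisulam and 16579, 12510 and 18187 after pladienolide B. The indisulam libraries lay above all DMSO libraries without passing the test (0.20 ± 0.11, adjusted p 0.191 by limma), and passed it with only those 2 groups in the fit (adjusted p 0.0191 by limma). The pladienolide B difference of 0.52 ± 0.11 passed the test in the deposited scaling and did not with same-total scaling (0.05) or quantile normalisation (0.17). ZNF574 rose 4.17-fold with pladienolide B, from 2902, 2879 and 2798 to 11279, 12330 and 12156 (2.06 ± 0.06). ZNF791 rose as well, from a mean of 2648 ± 85.1 to 6204 ± 307 (1.23 ± 0.06). ZNF562 rose with indisulam (0.35 ± 0.06) and fell with pladienolide B (−0.61 ± 0.06), from 5075, 4965 and 5100 in DMSO to 6252, 6252 and 6775 and to 3085, 3339 and 3501. ZNF787 fell with pladienolide B, from a mean of 4504 ± 333 to 2702 ± 400 (−0.74 ± 0.09), and was not called with indisulam (0.03 ± 0.09).

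Some abundant members had pladienolide B values close to DMSO. ZNF875 was at 1458, 1439 and 1556 in DMSO and at 1306, 1688 and 1497 with pladienolide B, overlapping groups with a log2 difference of 0.01 ± 0.09. With indisulam it rose to 2146, 2169 and 2368 (0.58 ± 0.09, adjusted p 0.000469 by limma). ZNF45 (0.01 ± 0.08), ZNF865 (−0.02 ± 0.09) and ZNF224 (−0.04 ± 0.14) were likewise not called with pladienolide B, nor were they with indisulam. ZNF224 encodes a KRAB repressor first described at the aldolase A gene. With same-total scaling all 4 were called lower with pladienolide B: ZNF875 (−0.47), ZNF45 (−0.46), ZNF865 (−0.49) and ZNF224 (−0.51). With quantile normalisation ZNF875 was called higher (0.23). A p that misses the threshold does not show that such genes were unaffected.

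A few members with known targets are given for reference, chosen after their values were seen. ZNF91, a repressor of SVA elements, was at 1531, 1511 and 1634 in DMSO, 1987, 1532 and 1763 after indisulam and 1473, 702 and 1386 after pladienolide B. The value of 702 in the replicate numbered 2 was the lowest of the 9, and neither drug passed the test against DMSO (0.17 ± 0.21 and −0.47 ± 0.21). The pladienolide B difference did pass it without pladienolide B replicate 1 (−0.66) or 3 (−0.62), and with same-total (−0.94) or TMM scaling (−0.54). ZNF93, a repressor of LINE-1 elements, was not called against DMSO either (0.35 ± 0.15 and −0.25 ± 0.15), but was called higher with indisulam with only those libraries and DMSO in the fit (0.35), and lower with pladienolide B without its replicate 3 (−0.40) or with same-total scaling (−0.73). ZNF274, which binds the finger-coding exons of other ZNF genes, fell with pladienolide B from 763, 830 and 744 to 400, 463 and 429 (−0.85 ± 0.10), and was at 750, 855 and 783 with indisulam (0.03 ± 0.10).

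The drugs were also compared with each other, as a difference of the group means of both drugs, with the DMSO libraries entering only the filter on low values and the shared estimate of the spread. Of the 219 members 77 were higher with pladienolide B than with indisulam (35.2%; 34.7% of all features), and 109 were lower (49.8%; 35.6% of all features). The median was −0.34, against 0.01 for all features. Differences of at least 2-fold numbered 38 higher (17.4%; 8.32% of all features) and 61 lower (27.9%; 18.4% of all features). ZNF792 (2.71 ± 0.08), ZNF132 (2.42 ± 0.20), ZNF614 (2.29 ± 0.11) and ZNF543 (2.27 ± 0.11) led the genes higher with pladienolide B. ZNF653 (−3.66 ± 0.13), ZNF681 (−3.31 ± 0.14), ZNF253 (−3.29 ± 0.30) and ZNF563 (−2.79 ± 0.21) led those lower. With same-total scaling the counts were 52 and 127, and with quantile normalisation 89 and 92. Over all features these scalings gave 3014 higher and 8497 lower, and 6287 higher and 5411 lower.

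Several members were called in opposite directions by the drugs. ZNF28 stood at 2548, 2069 and 2380 with indisulam, above DMSO (0.43 ± 0.15), and differed between the drugs by −2.60 ± 0.15, although the indisulam call was lost in 8 of 18 other settings, among them each omission of 1 library but that of indisulam replicate 2 (0.36 to 0.47). ZNF112 was at 575, 578 and 518 in DMSO, 839, 732 and 781 with indisulam (0.49 ± 0.13) and 178, 125 and 141 with pladienolide B (−1.92 ± 0.13). The 3 groups did not overlap, and the difference between the drugs was −2.41 ± 0.13. ZNF507 was at 1518, 1387 and 1562, then 2011, 1847 and 2045 with indisulam (0.40 ± 0.09), and 583, 498 and 521 with pladienolide B (−1.48 ± 0.09). ZNF470 had the same order, with means of 1254 ± 65.3 in DMSO, 1874 ± 116 after indisulam and 578 ± 166 after pladienolide B. The indisulam call of ZNF112 was lost without DMSO replicate 3 or indisulam replicate 1 (0.44 in both). That of ZNF470 was lost without DMSO replicate 2 (0.55) or indisulam replicate 1 (0.54).

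Other members were lower with both drugs, each measured against the same DMSO libraries. ZNF611 was at 1405, 1173 and 1230 in DMSO, 1063, 957 and 974 after indisulam and 718, 579 and 647 after pladienolide B (−0.97 ± 0.10), 3 groups in that order without overlap. ZNF551 lay between 548 and 616 in DMSO, between 417 and 469 after indisulam and between 341 and 520 after pladienolide B (−0.53 ± 0.14), so that both treated groups overlapped each other and neither overlapped DMSO. Its pladienolide B call was lost with quantile normalisation (−0.15) and without the 3 libraries numbered 2 (−0.46). ZNF749 was at 1434, 1601 and 1575 in DMSO, 1194, 1251 and 1336 after indisulam and 927, 1207 and 1124 after pladienolide B (−0.51 ± 0.10).

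Along the chromosome the tested members fell into 14 runs when starts more than 1 Mb apart were separated. Over all features 14.5% rose and 12.4% fell with indisulam, and 34.3% rose and 35.5% fell with pladienolide B. Differences between runs were not tested. The run from 55.5 to 58.5 Mb, near the end of the long arm, is the largest, with 53 tested members. There 13 rose and 4 fell with indisulam (median 0.19), and 26 rose and 19 fell with pladienolide B (median −0.02). In the run from 51.6 to 53.6 Mb 18 of 38 rose and 1 fell with indisulam (median 0.30), and 12 rose and 16 fell with pladienolide B (median −0.04). The run from 7.1 to 9.8 Mb, which holds ZNF557, ZNF699 and ZNF562, had the highest share of rises with indisulam among runs of at least 10 tested members: 8 of 14 rose and none fell, with a median of 0.38. From 19.7 to 24.1 Mb 4 of 27 rose with indisulam, near the share of all features, and 2 fell (median 0.14). None of the 5 tested members from 34.5 to 35.0 Mb was called with indisulam by limma. In the remaining runs of at least 10 tested members the indisulam medians were 0.20 (11.5 to 12.6 Mb), 0.30 (36.2 to 37.8 Mb) and 0.28 (43.5 to 45.1 Mb).

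Rises and falls with pladienolide B were mixed within each of the runs of at least 10 tested members. Of 205 pairs of neighbouring tested members within a run 131 had both members called with pladienolide B, 78 in the same direction and 53 in opposite directions. Since 88 of the 219 members rose and 89 fell, most pairs would hold 2 called members in any order. The excess of pairs in the same direction was not tested. The correlation of neighbours' log2 differences was r = 0.17 (Spearman rho 0.20) with pladienolide B and r = 0.07 (rho 0.04) with indisulam over the 205 pairs. These are descriptions across genes that share libraries, and neighbours can share reads. Overlap in position was common: 67 tested members overlap another tested feature, and 26 overlap one with a higher mean. Without those 26, 65 members rose and 8 fell with indisulam, and 78 rose and 81 fell with pladienolide B.

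**Figure D5:**
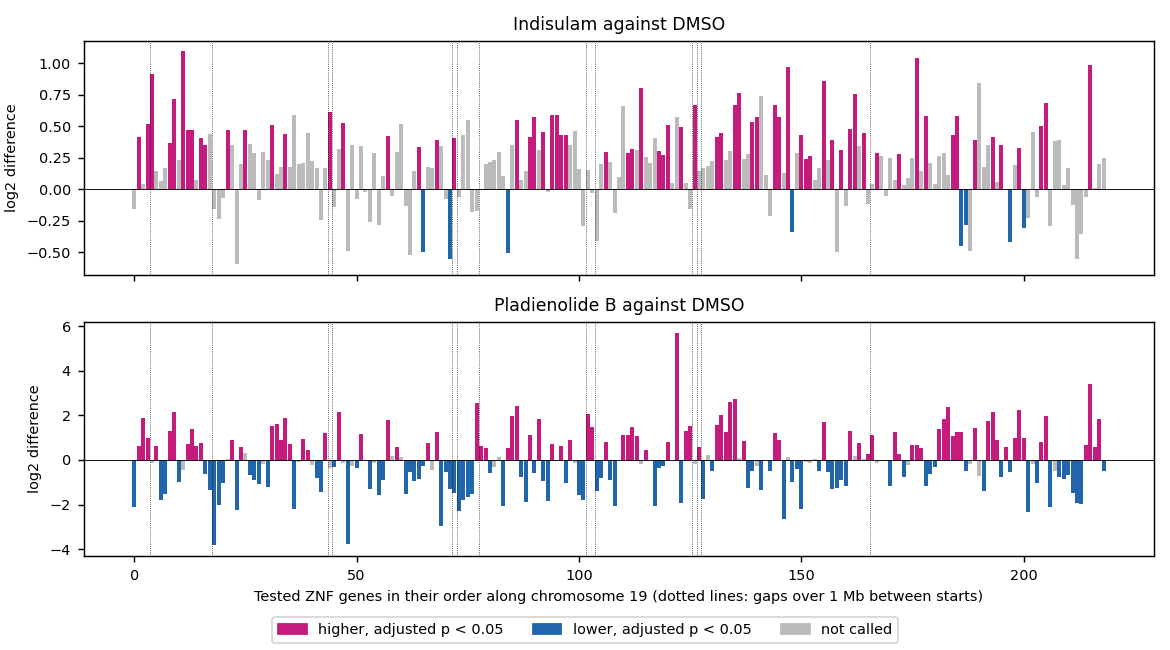
Log2 difference from DMSO (vertical axes, different scales) of the 219 tested members in their order along chromosome 19 for indisulam (top) and pladienolide B (bottom). Colours mark called genes and dotted lines mark gaps of more than 1 Mb. With indisulam 68 bars are called higher and 8 lower, spread over most runs, and with pladienolide B 88 higher and 89 lower bars lie side by side within runs.

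Gene structure was set beside the response. Across the 219 members the rank correlation of the pladienolide B difference was 0.38 with the mean value, −0.19 with the total intron length and −0.03 with the number of exons. That of the indisulam difference was 0.21 with the number of exons and at most 0.11 in size with mean value, transcript length, intron length and coding length. Among ZNF genes on other chromosomes the pladienolide B values were 0.44, −0.25 and −0.15 in the same order. Among other chromosome 19 features they were 0.22, −0.30 and −0.25. The indisulam value with the number of exons was 0.03 and −0.30 in these sets. These are descriptions across genes that share libraries, and the mean value includes the pladienolide B libraries. Of the 31 members with 6 exons, 15 rose and 2 fell with indisulam (median 0.40), and of the 27 with 3 exons 5 rose and 3 fell (median −0.03). These were the highest and lowest indisulam medians. The other classes had 0.16 (1 or 2 exons), 0.23 (4), 0.29 (5) and 0.21 (7 or more). With indisulam 14.5% of all features rose and 12.4% fell. With pladienolide B 6 of the 25 members with 7 or more exons rose and 14 fell (median −0.51). Of the 27 with 3 exons 10 rose and 14 fell (median −0.36), and of the 71 with 4 exons 31 rose and 26 fell (median 0.01). The other classes had pladienolide B medians of −0.04 (1 or 2 exons), −0.15 (5) and 0.10 (6). Over all features 34.3% rose and 35.5% fell with pladienolide B.

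The genes through which KRAB zinc finger proteins act were read from a list of corepressor and heterochromatin genes, of which 23 were tested. With indisulam 6 rose and 5 fell (median 0.05), where 14.5% and 12.4% of all features did. With pladienolide B 7 rose and 12 fell (median −0.40), where 34.3% and 35.5% of all features did. TRIM28, the protein that binds KRAB domains, was at 11946, 12620 and 12817 in DMSO, 12705, 12565 and 12379 after indisulam and 10952, 11907 and 11951 after pladienolide B. The groups overlapped and neither drug passed the test (0.01 ± 0.05 and −0.10 ± 0.05). TRIM28 was called lower with pladienolide B under TMM (−0.18), quantile (−0.44) and same-total scaling (−0.58). SETDB1, the histone H3 lysine methyltransferase recruited by TRIM28, fell with pladienolide B from 980, 881 and 879 to 556, 446 and 391 (−0.99 ± 0.12) and was not called with indisulam (0.19 ± 0.12). TASOR, a subunit of the HUSH silencing complex, fell with both drugs (−0.84 ± 0.08 and −0.76 ± 0.08), from a mean of 3584 ± 233 to 2002 ± 67.1 and 2122 ± 236. DNMT1, the maintenance DNA methyltransferase, fell with indisulam (−0.62 ± 0.06) and was not called with pladienolide B in the deposited scaling (0.05 ± 0.06), but was called lower with same-total scaling (−0.42) and quantile normalisation (−0.51). Among the rises, CHD3, a remodeller of the NuRD complex, was higher with both drugs (0.24 ± 0.07 and 0.60 ± 0.07). Its indisulam call was lost without DMSO replicates 1, 2 or 3 or indisulam replicates 1 or 2 (0.18 to 0.25), and with TMM or same-total scaling. Its pladienolide B call was lost with same-total scaling (0.13).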

How the data were processed

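Polyadenylated RNA of MDA-MB-231 cells was sequenced in 9 libraries of 3 groups. Per the submitters' processing notes, STAR 2.7.5a, FastQC, Picard, SAMtools and DESeq2 were used, with hg38 as the build. Libraries were stranded (fr-secondstrand), per the labels' protocols, while the read counter and how it used strand are both not given in the sources used here. Per feature the deposited table holds a signal, normalised by the authors as the table's name states. In each library all values were whole multiples of 1 step within a tolerance of 0.01 reads, that is, read counts divided by 1 factor per library. Library depth is given with the results, and the limit of 3 reads covers counting error only.

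Groups were compared with limma 3.58.1 under R 4.3.3, on log2(value + 1), which understates changes of low genes, with all 9 libraries in 1 fit, features with a mean of at least 10 (16846), a two-sided test and a threshold of 0.05 on the Benjamini-Hochberg adjusted p over all of them. The fit was tested on simulated data. The error after ± is the standard error of the fit for log2 differences and the SD for means. Within a group the libraries are labelled as replicas, with no mention of separate cultures. The p-values therefore measure only how these libraries vary, which may be technical. Within a group the chi-square per gene between libraries was at least 8.63, so each was counted as 1 sample. Gene structures came from GENCODE 29 (all 219 tested symbols matched) and promoter windows from RefSeq (GRCh38.p14). Protein sequences were not used here, so members were not grouped by finger number or KRAB domain.

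Named genes were, for each drug, the 8 largest rises and 8 largest falls among called members whose mean reached 100 and whose values did not overlap DMSO, 4 per direction between the drugs, the 6 most abundant, up to 4 each called in opposite directions, higher with both or lower with both, and 4 with the smallest pladienolide B difference among means of at least 500. The members, lists and tests were chosen with earlier results of these data known. Alternatives were TMM (edgeR 4.0.16), same-total and quantile scaling, a pseudocount of 5, other filters, edgeR and DESeq2 1.42.0 on recovered reads, fits of the compared groups alone, a replicate block and omission of libraries.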

Additional observations from a re-analysis of the deposited data

How the results depend on the processing

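With only the libraries of the 2 groups in the fit, 103 instead of 68 members were higher with indisulam and 14 instead of 8 lower. Over all features these numbers were 3497 instead of 2437 and 2747 instead of 2095. Without a filter on low values 5 members were lower, and 1861 of 27064 features. Leaving out 1 library gave 43 to 61 members higher and 3 to 5 lower (1565 to 1752 and 1489 to 1721 features). With all replicates numbered 2 left out, a choice made after seeing the data, 57 members were higher and 2 lower (1355 and 1327 features). With same-total scaling the indisulam median was 0.19. For pladienolide B against DMSO the median was −0.59 with same-total scaling and 0.13 with quantile normalisation. Between the drugs it was −0.76 and −0.03 under the same scalings. Counts for pladienolide B stayed within 1.5 times the reported ones in every setting run, with 85 to 91 higher and 84 to 96 lower when 1 library was left out. edgeR on the recovered reads gave 59 members higher and 12 lower with indisulam, and DESeq2 86 and 11. Over all features edgeR gave 1925 and 2546, and DESeq2 2855 and 2349.

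Same-numbered libraries were not treated as paired, since the labels name no shared origin. The correlation of their deviations from the group means ran from 0.00 to 0.13 over all features, not over 0.1 in every pair. For libraries of different number it ran from −0.12 to 0.04. Over the members the same-numbered values were higher, from 0.18 to 0.34 between DMSO and indisulam and 0.12 to 0.35 between the drugs. Between DMSO and pladienolide B they ran from 0.01 to 0.25. Libraries of different number gave −0.32 to 0.21 over the members. This is a hint of pairing from the data and not the design. With a replicate block 103 members were higher and 12 lower with indisulam, 90 and 95 with pladienolide B, and 82 and 112 between the drugs. Over all features the block gave 3548 and 2739, 6081 and 6248, and 6139 and 6260 in the same order. Among the named values the block added 10 calls, 7 of them with indisulam (ZNF614, ZNF14, ZNF563, ZNF146, ZNF574, ZNF791 and ZNF93), and ended 0.

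For 54 named symbols, 116 values were recomputed under the alternatives. Of 2088 such values 1940 stayed on their side of the threshold, 87 lost a call, 54 gained one and 7 changed sign with a call before or after. Among the 1940, 39 changed sign (at 2 decimals) with no call before or after. The 7 are pladienolide B differences: with same-total scaling ZNF83 (−0.32), ZNF841 (−0.37), ZNF875 (−0.47), ZNF45 (−0.46) and DNMT1 (−0.42), and with quantile normalisation ZNF43 (0.03) and DNMT1 (−0.51). The causes were not tested. With 3 libraries per group and differences mostly under 2-fold, members not called with indisulam are not shown to be unaffected.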
